A study of Mus musculus with 7 samples.

Results

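The 48 genes described here drive or mark the mitotic cell cycle. They were chosen as a list of symbols, and each symbol matched 1 Ensembl gene among the 55487 in the count files, so that 48 of 48 were measured and 48 of 48 were abundant enough to be tested. RNA of whole ovaries from 7 C57BL/6J female mice at postnatal day 60 had been sequenced after poly(A) selection, 1 library per mouse, with the ovaries taken at diestrus. The 3 CNTR mice were daughters of dams given PBS during gestation. The 4 PAMH F3 mice were great-granddaughters of treated dams: their lineage began with mothers given anti-Müllerian hormone (AMH) at 0.12 mg/kg/day from E16.5 to E18.5 of gestation, the F1 offspring were bred to F2 and the F2 to F3, and neither later generation received more AMH. The PAMH lineage is used as a mouse model of polycystic ovary syndrome. Because the controls were of the F1 generation and the PAMH F3 mice of the F3 generation, the generation and the ancestral treatment cannot be told apart. The question asked here was whether proliferation genes differ between the 2 kinds of ovary, and how they vary from mouse to mouse.

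Cells that divide pass from G1, where D-type cyclins with CDK4 and CDK6 and E-type cyclins with CDK2 release E2F transcription factors from the RB family, into S phase, where the MCM helicase and the PCNA clamp copy the genome, and then into mitosis, driven by cyclin A and B with CDK1 and closed by the spindle checkpoint and the anaphase-promoting complex. The transcripts themselves come in waves: E2F factors act on many S phase genes, and MYBL2 and FOXM1, bound with the MuvB core, act on many mitotic genes. In the adult ovary most dividing cells are granulosa cells of growing follicles, for which cyclin D2 is the D-type cyclin that follicle-stimulating hormone induces, while oocytes are arrested in meiosis and luteal cells have largely left the cycle. The members fall into 8 G1 cyclins and kinases, 4 transcription factors, 13 S phase genes and 23 mitotic genes.

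The classes differed in the letters of their promoters. Windows from 250 bases before to 50 bases after a RefSeq start (GRCm38.p6) were found for 37 of the 48 members, in 41 windows. They were searched on both strands for CCAAT, the letters bound by NF-Y; for TTTGAA or TTCGAA, the core letters of the cell cycle genes homology region (CHR) bound by MuvB complexes; and for TTTCGCGC, TTTGGCGC or TTTCCCGC, forms of the E2F site. TTCGAA is its own reverse complement, and TTTCGCGC and TTTGGCGC on opposite strands can share letters. CCAAT stood in the windows of 15 of 18 mitotic genes (83.3%) and 8 of 11 S phase genes (72.7%), against 41.1% of all 27025 genes in the promoter table. The CHR letters stood in 13 of 18 mitotic genes (72.2%), 2 of 11 S phase genes (18.2%) and 0 of 5 G1 genes, against 21.7% of all genes, and CCAAT and CHR letters stood together in 13 of 18 mitotic genes against 8.61% of all. The E2F letters had the opposite distribution, with 6 of 11 S phase genes (54.5%), 1 of 18 mitotic genes (5.56%) and 2.12% of all genes. A match is a run of letters in a window and not a measured binding site.

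The 200 bases before the start are printed for 7 members, on the strand of the gene and in lower case with the searched letters, on either strand, in capitals (ATTGG is CCAAT and TTCAAA is TTTGAA on the other strand). Top2a, Mki67 and Cdk1 show the mitotic layout, Mcm5 and Mcm6 the S phase layout, and Mad2l1 and Cdk4 hold none of the letters in the bases shown.
Top2a (chr11:99024190-99024389, minus strand): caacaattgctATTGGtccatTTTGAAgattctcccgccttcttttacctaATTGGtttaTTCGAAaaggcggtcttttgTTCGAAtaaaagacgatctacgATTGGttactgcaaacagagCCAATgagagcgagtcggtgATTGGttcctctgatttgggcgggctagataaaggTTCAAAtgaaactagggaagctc
Mki67 (chr7:135716380-135716579, minus strand): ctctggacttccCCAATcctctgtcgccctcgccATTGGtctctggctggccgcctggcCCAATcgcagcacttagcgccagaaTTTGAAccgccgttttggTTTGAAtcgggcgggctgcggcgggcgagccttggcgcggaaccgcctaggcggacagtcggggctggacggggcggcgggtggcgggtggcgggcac
Cdk1 (chr10:69352913-69353112, minus strand): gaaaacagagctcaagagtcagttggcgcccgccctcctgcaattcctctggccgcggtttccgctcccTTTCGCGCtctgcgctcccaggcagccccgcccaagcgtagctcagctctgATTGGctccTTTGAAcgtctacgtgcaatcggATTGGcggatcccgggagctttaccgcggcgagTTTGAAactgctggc
Mcm5 (chr8:75109309-75109508, plus strand): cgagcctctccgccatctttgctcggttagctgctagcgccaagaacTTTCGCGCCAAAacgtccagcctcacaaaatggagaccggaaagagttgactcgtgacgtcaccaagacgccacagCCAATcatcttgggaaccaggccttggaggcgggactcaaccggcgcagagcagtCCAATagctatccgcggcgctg
Mcm6 (chr1:128359706-128359905, minus strand): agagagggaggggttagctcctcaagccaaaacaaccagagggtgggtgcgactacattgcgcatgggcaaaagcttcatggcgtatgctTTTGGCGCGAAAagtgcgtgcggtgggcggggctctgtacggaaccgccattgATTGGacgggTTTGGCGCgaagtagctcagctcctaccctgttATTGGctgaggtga
Mad2l1 (chr6:66535021-66535220, plus strand): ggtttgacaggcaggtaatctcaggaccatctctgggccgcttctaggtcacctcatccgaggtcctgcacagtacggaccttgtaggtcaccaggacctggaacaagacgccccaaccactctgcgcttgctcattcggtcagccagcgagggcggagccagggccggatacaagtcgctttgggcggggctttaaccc
Cdk4 (chr10:127063335-127063534, plus strand): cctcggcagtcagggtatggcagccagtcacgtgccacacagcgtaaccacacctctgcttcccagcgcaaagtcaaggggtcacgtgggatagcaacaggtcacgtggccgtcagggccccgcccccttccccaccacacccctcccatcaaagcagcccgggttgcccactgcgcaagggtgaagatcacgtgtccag
Cdk1 was the mitotic gene with E2F letters as well as CCAAT and CHR letters. In Mcm5 and Mcm6 a pair of E2F runs overlaps on opposite strands. Mad2l1, a spindle checkpoint gene, followed the other mitotic genes across libraries without any of these letters, and Cdk4 did not follow them.

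The libraries had 32158174 to 35485021 reads counted in genes, and each member had 124 to 13728 reads in every library. Levels are given in CPM, read counts scaled to a common library size with TMM factors, and comparisons between genes as CPM per kilobase of exon, mean ± SD over the 7 libraries. Cdk4, the G1 kinase, was the most abundant member at 98.8 ± 5.53 CPM per kilobase, followed by Ccnd2 at 36.9 ± 3.96, and the distance between them was larger than either SD. Next in order came Pcna at 23.0 ± 1.95, Mcm6 at 22.4 ± 3.22, Mcm3 at 19.4 ± 3.33, Ccnd1 at 18.0 ± 4.52 and Top2a at 17.6 ± 3.61, and neighbours in this run differed by less than their SD. The lowest were Mybl2 at 1.96 ± 0.209, Ccne1 at 1.86 ± 0.372 and Cdc25c at 1.45 ± 0.235, with Mybl2 and Ccne1 within their SD of each other. The median of the 48 members was 7.50 CPM per kilobase. By class the medians were 13.2 for S phase genes, 8.16 for G1 genes, 6.76 for mitotic genes and 3.28 for the transcription factors.

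**Figure D1:**
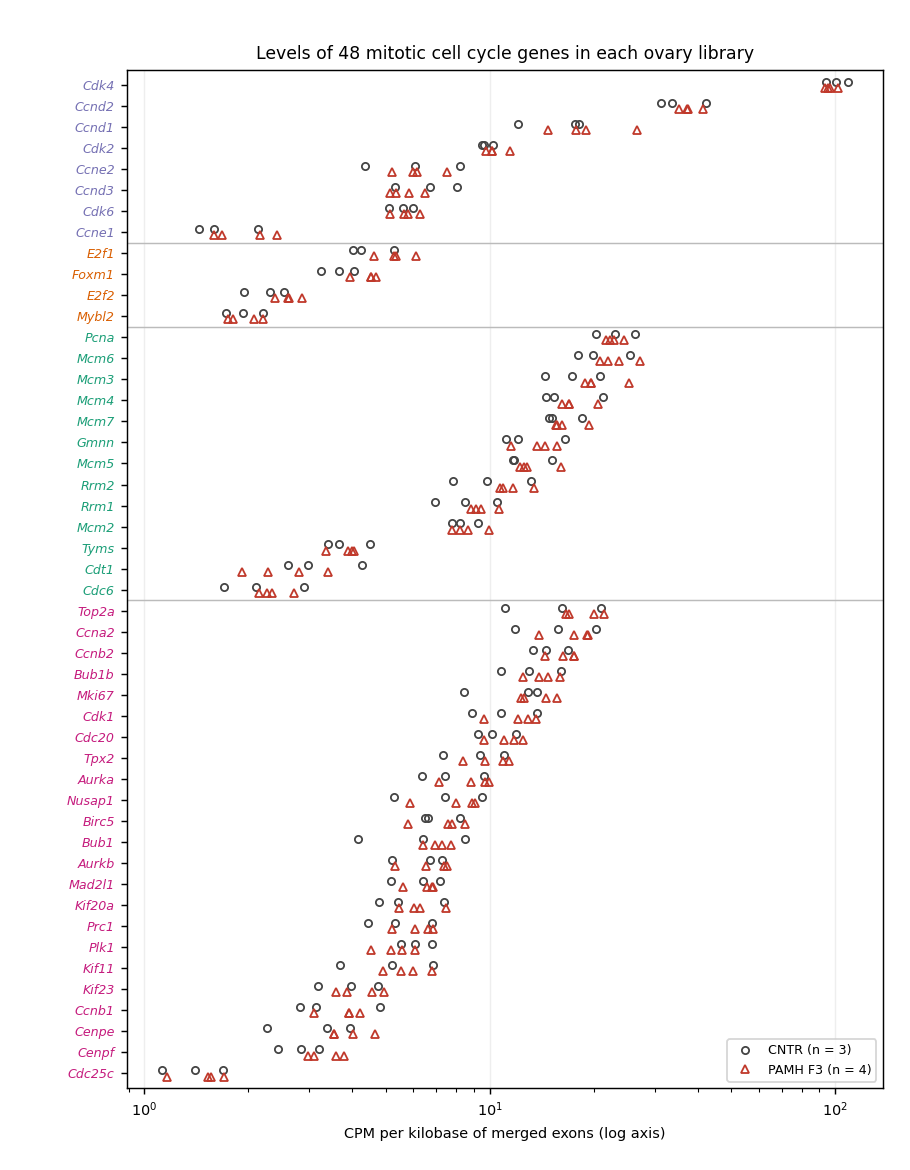
Level of each of the 48 members in TMM CPM per kilobase of exon on a log axis, 1 point per library (3 CNTR, 4 PAMH F3), ordered within class. Cdk4 stands alone at 98.8 CPM per kilobase, Cdc25c is lowest at 1.45, and the points of the 2 groups overlap for every member.

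No member differed between PAMH F3 and CNTR ovaries past an adjusted p of 0.05. The comparison used edgeR's quasi-likelihood F test with 2 surrogate variables, which stand for variation between libraries that the groups do not explain, and adjusted p over all 18779 genes tested by Benjamini-Hochberg. With it 0 of 48 members and 0 of 18779 genes passed (0% called), the lowest adjusted p of a member being 0.578. At an unadjusted p under 0.05 there were 2 of 48 members, both higher in PAMH F3, where 7.63% of all genes were called, 3.89% higher and 3.74% lower. Without surrogate variables 1 of 48 members had such a p and was higher, where 3.89% of all genes were called, 1.17% higher and 2.72% lower. Correcting each library for the GC content and length of the transcripts, in a fit with no surrogate variables, left 1 of 48, also higher, where 4.47% of all genes were called, 1.53% higher and 2.94% lower. DESeq2 gave 1 of 48 with surrogate variables, against 3.23% of 33791 genes, and 1 of 48 without them, against 2.49%. No member had all PAMH F3 libraries above or below all CNTR libraries, against 4.25% of all genes, or 1.85% of all genes with PAMH F3 above. In whole ovary a difference could come from fewer cells of a type or from less RNA per cell, which cannot be told apart.

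How far the data bounded the members depended on the fit. The 95% interval of the log2 fold change (PAMH F3 over CNTR, as in all that follows) lay within ±0.5 for 45 of 48 members and for 23 of 23 mitotic genes, where it did for 11219 of 18779 genes. Without surrogate variables it did for 25 of 48 members, 10 of 23 mitotic genes and 9780 of 18779 genes. Log2 fold changes ranged from -0.21 for Cdt1 to 0.29 for Ccnd1, with a median of 0.036 where all genes tested had 0.0067. They were above 0 for 33 of 48 members, against 52.2% of all genes, and without surrogate variables for 42 of 48 against 51.5%, and after the GC and length correction for 39 of 48 against 50.7%. By class the medians were 0.0016 for the G1 genes, 0.18 for the transcription factors, -0.0049 for the S phase genes and 0.047 for the mitotic genes, and 0.06, 0.23, 0.06 and 0.12 without surrogate variables. Members move together from mouse to mouse, so these counts are not those of independent genes.

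**Figure D2:**
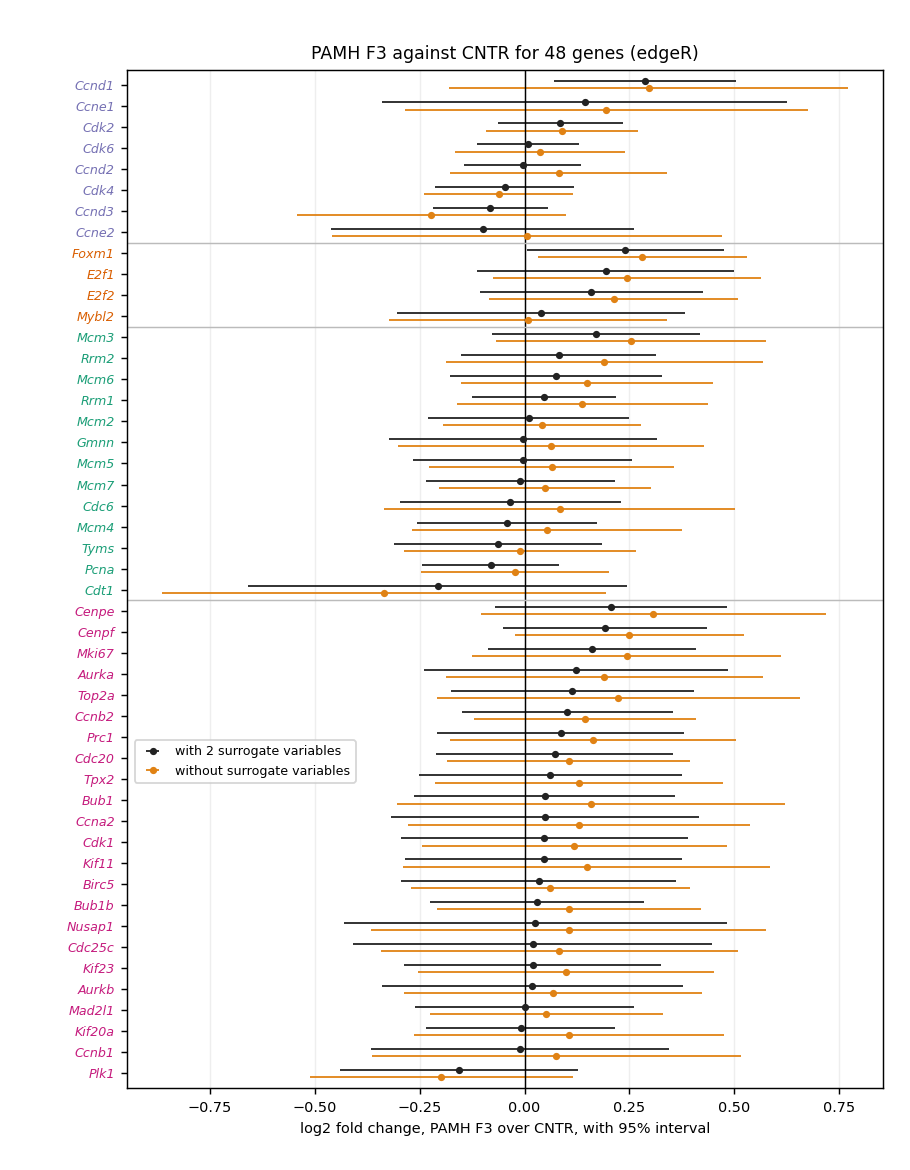
Log2 fold change (PAMH F3 over CNTR) of each of the 48 members with its 95% interval, from the edgeR fits with and without surrogate variables, 3 CNTR and 4 PAMH F3 libraries. The values with surrogate variables lie between -0.21 (Cdt1) and 0.29 (Ccnd1), and the intervals of Ccnd1 and Foxm1 alone among them exclude 0.

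Among the D-type cyclins, which bind CDK4 and CDK6, Ccnd1 (ENSMUSG00000070348, chr7:144929931-144939925, GRCm38) had the lowest p of the members. It was at 85.6, 83.1 and 56.9 CPM in CNTR replicates 1, 2 and 3 and at 83.5, 89.6, 126 and 69.5 CPM in PAMH F3 replicates 1 to 4. The groups overlapped, with PAMH F3 replicate 3 high and CNTR replicate 3 low. Its log2 fold change was 0.29 (SE 0.09, 95% interval 0.07 to 0.50, unadjusted p = 0.0163, adjusted p = 0.578), and without surrogate variables 0.30 (SE 0.21, unadjusted p = 0.194). Of the 50-base words of Ccnd1 transcripts, 21.6% are also found antisense in LTO1, a gene on the other strand, and the strand setting of the counting is not given in the sources used here.

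Ccnd2, the granulosa cyclin, was at 399, 295 and 316 CPM in CNTR and at 389, 352, 332 and 349 CPM in PAMH F3. All 4 PAMH F3 libraries lay inside the range of the controls. The log2 fold change was -0.0049 (SE 0.06, 95% interval -0.14 to 0.13). Ccnd3, the D-type cyclin of many differentiating cells, ran from 46.7 to 70.3 CPM in CNTR and from 45.2 to 57.1 CPM in PAMH F3, and its highest value was in CNTR replicate 2, where most members were lowest.

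Cdk4, the kinase partner of these cyclins, was among the steadiest members, at 326, 355 and 306 CPM in CNTR and 310.2, 304, 313 and 332 CPM in PAMH F3 (log2 fold change -0.05, SE 0.07). Its highest library exceeded its lowest by 1.16 times among all 7. Ccne1, the cyclin that activates CDK2 at the G1/S boundary, was at 5.67, 4.23 and 3.84 CPM in CNTR and at 4.48, 4.25, 6.44 and 5.77 CPM in PAMH F3. The ranges overlapped, and the log2 fold change of 0.14 had an interval from -0.34 to 0.63, among the widest of the members. Ccne2, its paralogue, was on average 21.7 CPM in both groups.

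All 4 transcription factors had log2 fold changes above 0. Foxm1 (ENSMUSG00000001517, chr6:128362967-128376146), the forkhead factor of the mitotic wave, was at 23.3, 18.7 and 20.98 CPM in CNTR and at 22.7, 26.1, 26.0 and 27.0 CPM in PAMH F3. PAMH F3 replicates 2, 3 and 4 lay above all controls and replicate 1 below CNTR replicate 1, so that the groups overlapped by 1 library. The log2 fold change was 0.24 (SE 0.10, 95% interval 0.01 to 0.47, unadjusted p = 0.0454, adjusted p = 0.645), and 0.28 (SE 0.11, unadjusted p = 0.0316) without surrogate variables. Foxm1 was the 1 member with an unadjusted p under 0.05 in both fits.

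E2f1 (ENSMUSG00000027490, chr2:154559407-154569892), which activates S phase genes, was at 16.7, 13.4 and 12.6 CPM in CNTR and at 14.6, 16.7, 16.9 and 19.3 CPM in PAMH F3. CNTR replicate 1 was higher than PAMH F3 replicate 1, so the groups overlapped. The log2 fold change was 0.19 (SE 0.13, unadjusted p = 0.179). Mybl2, the B-MYB gene, was at 8.95, 10.2 and 7.95 CPM in CNTR and at 8.36, 8.10, 9.62 and 10.2 CPM in PAMH F3, with group means of 9.03 and 9.08 CPM. E2f2 had a log2 fold change of 0.16 (SE 0.11).

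Of the S phase genes, Mcm5 (ENSMUSG00000005410, chr8:75109569-75128439), a subunit of the replicative helicase, was at 60.3, 46.9 and 46.7 CPM in CNTR and at 48.8, 51.3, 50.2 and 64.2 CPM in PAMH F3. CNTR replicate 1 and PAMH F3 replicate 4 were high and the other 5 libraries close together. The log2 fold change was -0.0049 (SE 0.11). The other 5 helicase genes, Mcm2, Mcm3, Mcm4, Mcm6 and Mcm7, also had PAMH F3 replicate 4 as the highest PAMH F3 library.

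Pcna, the sliding clamp of DNA polymerase, was at 63.2, 48.7 and 55.5 CPM in CNTR and at 52.1, 54.9, 53.5 and 58.9 CPM in PAMH F3 (log2 fold change -0.08, SE 0.07). Cdc6, which loads the helicase, was at 15.2, 8.88 and 11.0 CPM in CNTR and at 12.2, 11.2, 11.8 and 14.2 CPM in PAMH F3 (log2 fold change -0.03, SE 0.11). For both genes every PAMH F3 library lay between the lowest and the highest control. Cdt1, the partner of Cdc6 in loading, had the lowest log2 fold change of the members, -0.21 (SE 0.19, interval -0.66 to 0.24), with CNTR at 8.17 to 13.4 CPM and PAMH F3 at 6.01 to 10.7 CPM.

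Among the mitotic genes, Mki67 (ENSMUSG00000031004, chr7:135689784-135716361), whose protein coats mitotic chromosomes and is a standard proliferation marker, was at 138, 84.7 and 129.6 CPM in CNTR and at 127, 146, 124 and 158 CPM in PAMH F3. CNTR replicate 2 stood far below the other 6 libraries. The log2 fold change was 0.16 (SE 0.11, unadjusted p = 0.172), and 0.24 (SE 0.16, unadjusted p = 0.169) without surrogate variables. Top2a (ENSMUSG00000020914, chr11:98992943-99024189), the topoisomerase that untangles sister chromatids, was at 189, 100 and 146 CPM in CNTR and at 149, 180.4, 153 and 193 CPM in PAMH F3, and its controls differed from each other by 1.89 times while the PAMH F3 libraries differed by 1.29 times. Its log2 fold change was 0.11 (SE 0.12).

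Cdk1 (ENSMUSG00000019942, chr10:69335146-69352938), the mitotic kinase, was at 67.5, 43.8 and 53.0 CPM in CNTR and at 47.3, 63.6, 59.7 and 67.2 CPM in PAMH F3 (log2 fold change 0.05, SE 0.15). Ccnb1, its cyclin partner, was at 20.3, 11.9 and 13.3 CPM in CNTR and at 13.1, 17.8, 16.49 and 16.46 CPM in PAMH F3 (log2 fold change -0.01, SE 0.15). In both genes the PAMH F3 libraries lay inside the control range. The Ccnb1 count is a partial one in all libraries, since only uniquely aligned reads were counted. Of its 50-base words 23.4% also occur in other annotated genes, among them the pseudogene Ccnb1-ps. The same share was 19.3% for Mybl2, 19.1% for Pcna, 18.1% for Mcm7 and 10.4% for Cdc20, whose counts can be partial too.

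Cdc25c, the phosphatase that activates CDK1, was at 8.32, 5.52 and 6.90 CPM in CNTR and at 5.72, 7.53, 7.64 and 8.37 CPM in PAMH F3 (log2 fold change 0.02, SE 0.18). The largest log2 fold changes among mitotic genes were 0.21 for Cenpe (SE 0.12, unadjusted p = 0.121), a kinetochore motor, and 0.19 for Cenpf (SE 0.10, unadjusted p = 0.103), a kinetochore protein of G2. The lowest was -0.16 for Plk1 (SE 0.12, unadjusted p = 0.235), the Polo-like kinase. The other 15 mitotic genes, with the Aurora kinases, the checkpoint genes Bub1, Bub1b and Mad2l1 and the spindle genes Kif11, Kif20a, Kif23, Tpx2, Nusap1 and Prc1, lay between these values, and 20 of 23 mitotic genes were above 0.

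The largest differences were between mice of the same group. The mitotic genes summed to 1156, 733 and 947 CPM in CNTR replicates 1, 2 and 3 and to 904, 1110.4, 1015 and 1183 CPM in PAMH F3 replicates 1 to 4. The S phase genes summed to 771, 567 and 614 CPM and to 639, 669, 673 and 796 CPM in the same order. Both classes were highest in PAMH F3 replicate 4, followed by CNTR replicate 1, and lowest in CNTR replicate 2, so that the controls alone covered most of the range. The G1 genes, in which Cdk4 and Ccnd2 weigh most, summed to 911 to 1030.0 CPM in CNTR and to 962 to 995 CPM in PAMH F3.

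Gene by gene the same order recurred. CNTR replicate 2 was the lowest of the 7 libraries for 34 of 48 members and 20 of 23 mitotic genes, against 22.1% of all genes tested. CNTR replicate 1 or PAMH F3 replicate 4 was the highest for 40 of 48, against 33.5%. The controls stood in the order 1, 3, 2 from high to low for 33 of 48 members and 20 of 23 mitotic genes, against 18.4%. Within PAMH F3, replicate 1 was lowest for 34 of 48 members and 5256 of 18779 genes, and replicate 4 highest for 36 of 48 members and 5384 of 18779 genes.

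**Figure D3:**
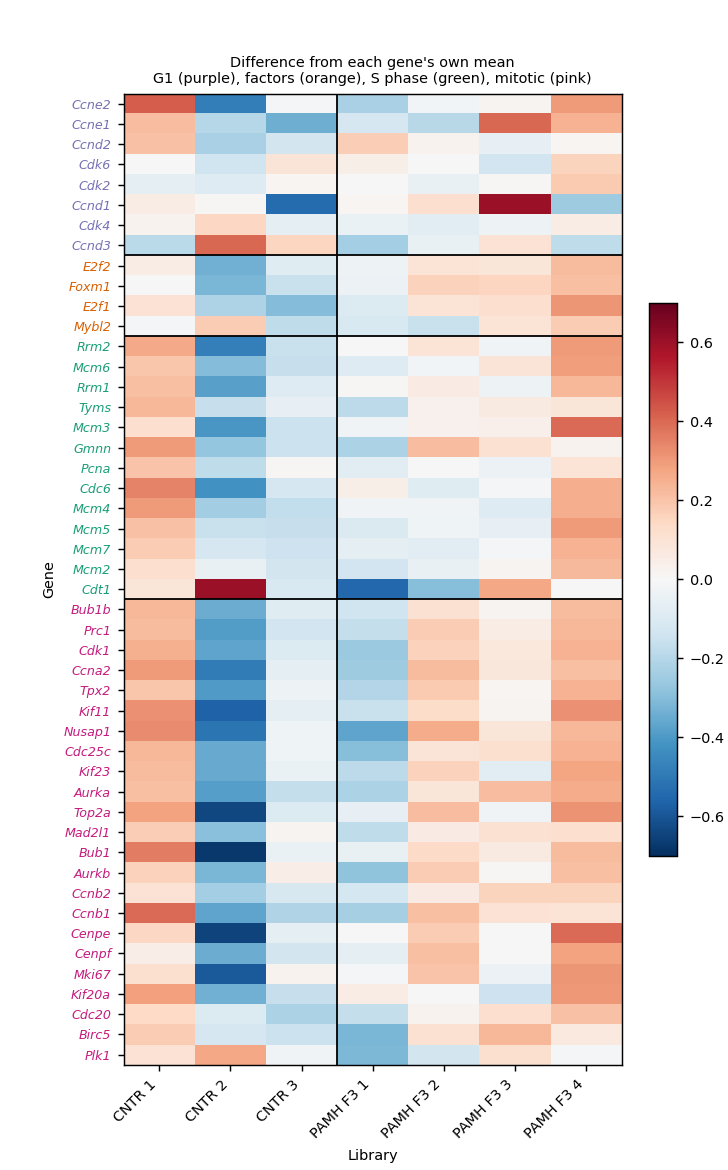
Log2 CPM of each of the 48 members in each of the 7 libraries, centred on the mean of that gene over the 7 libraries, with a colour scale that ends at ±0.7. The column of CNTR replicate 2 is low for 42 members and above the mean for 6, and the columns of CNTR replicate 1 and PAMH F3 replicate 4 are the highest.

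The controls were more spread than the PAMH F3 mice for most members. The SD of log2 CPM was larger in CNTR than in PAMH F3 for 42 of 48 members, and for 11617 of all 18779 genes. The distance from the lowest to the highest library had a median over members of 0.56 on the log2 scale in CNTR and 0.38 in PAMH F3, where the medians over all genes were 0.40 and 0.37. In linear terms, the highest control exceeded the lowest by 2.05 times for Bub1, a checkpoint kinase gene, by 1.88 times for Ccne2 and by a median of 1.48 times, against a median of 1.30 times in PAMH F3. With 3 and 4 mice no test of this difference in spread was made.

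**Figure D4:**
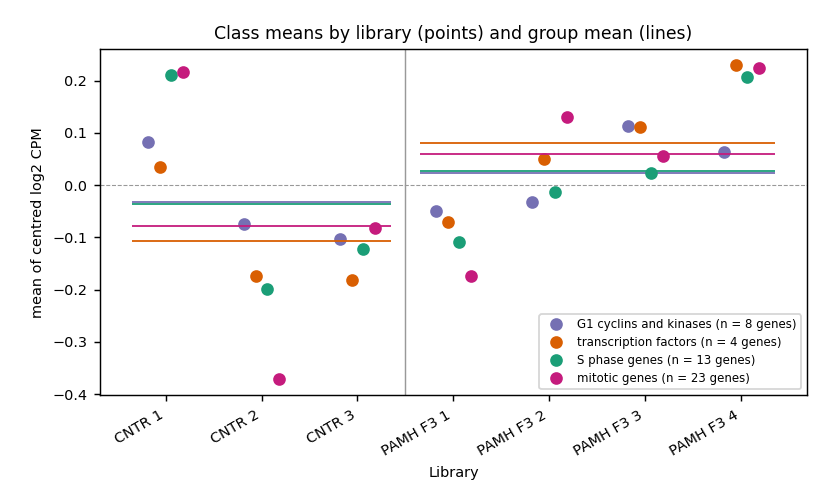
Mean centred log2 CPM of the 4 member classes in each library (y axis, log2; x axis, the 3 CNTR and 4 PAMH F3 libraries). The mitotic genes run from -0.37 in CNTR replicate 2 to 0.22 in CNTR replicate 1 and PAMH F3 replicate 4, and the G1 genes stay between -0.10 and 0.11.

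S phase and mitotic genes moved together across the libraries. Over the 7 libraries the median Pearson r between 2 mitotic genes was 0.87 (253 pairs), between 2 S phase genes 0.80 (78 pairs) and between an S phase and a mitotic gene 0.79 (299 pairs), where the median over all pairs of genes tested was -0.002. Pairs with r above 0.8 made up 70.4% of the mitotic pairs and 3.25% of all pairs. The median between 2 G1 genes was -0.00078 (28 pairs), so that this class had no common course. These correlations describe the same 7 libraries of similar depth and are not independent of each other. The mitotic median was 0.87 without CNTR replicate 1, 0.82 without CNTR replicate 2 and 0.85 within the 4 PAMH F3 libraries, where 4 points alone gave r above 0.8 in 12.3% of all pairs.

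For 6 pairs a permutation test was run over all orders of the 7 libraries (two-sided, exact, adjusted over the 6 pairs). Mki67 and Top2a had r = 0.96 (exact p = 0.00357, adjusted 0.00952; rho = 0.82, exact p = 0.0341, adjusted 0.0512), which was 0.82 without CNTR replicate 2 and PAMH F3 replicate 4. Ccnb1 and Cdk1, the 2 parts of the mitotic kinase, had r = 0.93 (exact p = 0.00357, adjusted 0.00952; rho = 0.89, exact p = 0.0123, adjusted 0.0246), and 0.86 without CNTR replicate 2 and PAMH F3 replicate 1. Both pairs kept most of their correlation without the 2 libraries farthest from the median of the gene named first.

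The helicase pair Mcm5 and Mcm2 had r = 0.93 (exact p = 0.00476, adjusted 0.00952; rho = 0.75, exact p = 0.0663, adjusted 0.0795), but 0.50 without CNTR replicate 1 and PAMH F3 replicate 4, so that much of the relation rested on those libraries. E2f1 and Mcm5 had r = 0.84 (exact p = 0.0153, adjusted 0.0229; rho = 0.89, exact p = 0.0123, adjusted 0.0246), and 0.78 without CNTR replicates 2 and 3. Mcm5 and Top2a had r = 0.76 (exact p = 0.0413, adjusted 0.0495; rho = 0.96, exact p = 0.00278, adjusted 0.0167), and 0.76 without CNTR replicate 1 and PAMH F3 replicate 4. Ccnd2 and Mki67 had r = 0.62 (exact p = 0.138, adjusted 0.138; rho = 0.50, exact p = 0.267, adjusted 0.267), and 0.08 without CNTR replicates 1 and 2. Ccnd2 and Mki67 were thus the 1 pair not past the threshold with all libraries, and none of the other 5 pairs was past it over the 5 libraries left (adjusted exact p of 0.175 to 0.5).

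Measured against the mean of the other mitotic genes, 21 of 48 members had r above 0.9, with Bub1b and Prc1 at 0.99. They were 16 of 23 mitotic genes, 3 of 13 S phase genes, 1 of 8 G1 genes (Ccne2 at 0.94) and 1 of 4 transcription factors (E2f2 at 0.92). Ccne2, a cyclin of the G1/S boundary, therefore followed the mitotic genes, whereas its paralogue Ccne1 had r = 0.59. The 2 were closer, at 0.87 for Ccne2 and 0.70 for Ccne1, after each library was corrected for GC content and length. With that correction 0 of 8 G1 genes had r above 0.9. Mad2l1, whose shown promoter bases hold none of the searched letters, had r = 0.95, and 0.64 after the same correction. At the other end, 5 members had r below 0: Ccnd3 at -0.66, Cdk4 at -0.34, Cdt1 at -0.25, Plk1 at -0.18 and Mybl2 at -0.05. Plk1 was the 1 mitotic gene among them. After a correction of each library for GC content and length, Ccnd3 was the 1 member below 0 (-0.37), and r was 0.052 for Cdk4, 0.18 for Cdt1, 0.43 for Plk1 and 0.52 for Mybl2.

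GC content moved with this split. The 6 members above their own mean in CNTR replicate 2 were Ccnd1, Ccnd3, Cdk4, Cdt1, Mybl2 and Plk1, with 50.9% to 57.8% GC and a median of 56.1%, where the other 42 had a median of 47.2% and all genes 49.3%. Over all genes, log2 CPM in CNTR replicate 2 rose by 0.30 per 10% of GC relative to the gene means, where the slopes of the other 6 libraries lay between -0.12 and 0.045. Over the 48 members, the r of GC content with the deviation in CNTR replicate 2 was 0.67, and 0.14 after each library was corrected for GC content and length. After that correction the mitotic mean in CNTR replicate 2 was -0.30 instead of -0.37, the S phase mean was -0.20 in both, and the median r between mitotic genes was 0.86. The low level of the proliferation genes in that library was thus present with and without the correction, and 5 members stood above their mean in it after the correction: Ccnd3, Cdk4, Cdk6, Cdt1 and Plk1.

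**Figure D5:**
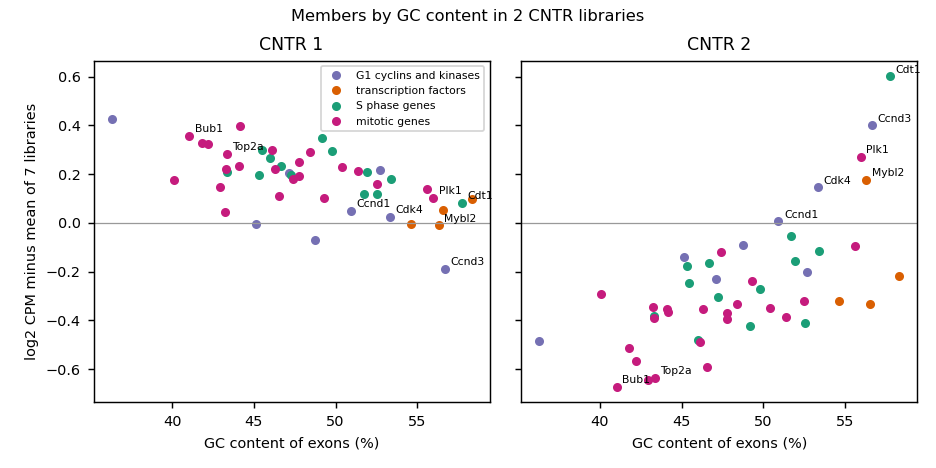
GC content of each member (percent, x axis) against its deviation from its own mean over the 7 libraries (log2 CPM, y axis), 1 point per member. The panels show CNTR replicate 1 and CNTR replicate 2, both before the correction for GC content and length. Over the 48 members r was -0.60 in CNTR replicate 1 and 0.67 in CNTR replicate 2.

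Since the control libraries differed most, the group comparison depended on which of them entered it. Without CNTR replicate 1, 21 of 48 members had an unadjusted p under 0.05, 20 of them higher in PAMH F3 and Ccnd3 lower, where 17.1% of all genes had such a p and 7.19% were higher. By class they were 3 of 8 G1 genes, 3 of 4 transcription factors, 6 of 13 S phase genes and 9 of 23 mitotic genes, and without surrogate variables they numbered 14, against 8.43% of all genes. None passed an adjusted p of 0.05 (lowest 0.107). Log2 fold changes without that mouse were 0.49 for Top2a (unadjusted p = 0.00655), 0.41 for Rrm2 (unadjusted p = 0.00488), a subunit of the reductase that makes deoxynucleotides, 0.50 for Cenpe (unadjusted p = 0.00523) and -0.35 for Ccnd3 (unadjusted p = 0.00310).

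In the same 6 libraries 17 of 48 members had every PAMH F3 library above both controls and Ccnd3 had every one below, where 6.75% of all genes lay above and 15.5% did not overlap. With CNTR replicate 1 kept and CNTR replicate 2 left out, the median log2 fold change of the members was -0.022 with surrogate variables (18 of 48 above 0) and -0.012 without them (20 of 48 above 0). In that fit 1 member had an unadjusted p under 0.05 with surrogate variables, against 7.70% of all genes, and 0 did in edgeR without them, against 2.78%. Without PAMH F3 replicate 4 the median was -0.038 with surrogate variables (14 of 48 above 0) but 0.057 without them (35 of 48), and without PAMH F3 replicate 2 it was -0.023 (19 of 48) and 0.079 (41 of 48). Leaving out CNTR replicate 2 thus turned the sign of the median in both fits, and leaving out either of these PAMH F3 mice turned it with surrogate variables only. Without PAMH F3 replicate 1, 6 members had an unadjusted p under 0.05 with surrogate variables, against 10.6% of all genes, and 2 without them, against 4.49%. The second surrogate variable, estimated from all genes with the members among them, set CNTR replicate 1 (-0.62) apart from replicates 2 (0.53) and 3 (0.50), with PAMH F3 between -0.27 and -0.02.

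Markers of some ovarian cell types shared part of the order of the proliferation genes across the libraries, and others had other orders. All 8 granulosa markers were measured in every library and summed to 3015, 3225 and 5344 CPM in CNTR and to 3736, 4181, 3711 and 5377 CPM in PAMH F3, so that CNTR replicate 1, where most S phase and mitotic genes were high, had the lowest sum. Inha and Inhba made up most of that sum, at 1318 and 1155 CPM. In CNTR replicate 1 Inha, Cyp19a1 and Hsd17b1 were at their lowest, whereas Inhba, Fshr, Amh, Amhr2 and Foxl2 were lowest in other libraries. Of the granulosa markers 4 of 8 had an unadjusted p under 0.05 between the groups, 2 higher and 2 lower in PAMH F3, where 7.63% of all genes were called. There were 1 of 8, lower, without surrogate variables (3.89% of all genes) and 0 after the GC and length correction (4.47%). The 10 oocyte markers summed to 321 CPM in PAMH F3 replicate 1 and to 416 to 519 CPM in the other 6. Like the mitotic sum, theirs was highest in PAMH F3 replicate 4 (519 CPM), followed by CNTR replicate 1 (505 CPM). Marker by marker the likeness was weaker. PAMH F3 replicate 4 or CNTR replicate 1 was highest for 4 of 10 oocyte markers, and CNTR replicate 2 for 4 of 10. The mean centred log2 CPM of the oocyte markers was 0.13 in CNTR replicate 2, where that of the mitotic genes was -0.37. The 5 surface epithelium markers summed to 521, 374 and 405 CPM in CNTR and to 471, 442, 438 and 334 CPM in PAMH F3. The 5 endothelial markers summed to 260, 214 and 241 CPM in CNTR and to 265, 195, 181 and 219 CPM in PAMH F3. Both sums had the control order 1, 3, 2. Single markers had it in 2 of 5 endothelial and 3 of 5 surface epithelium genes, against 18.4% of all genes. The 7 luteal markers summed to 3704 to 5907 CPM in CNTR and to 2399.7 to 4055 CPM in PAMH F3. At an unadjusted p under 0.05, 3 of 7 luteal and 2 of 5 endothelial markers were lower in PAMH F3 with surrogate variables, and 2 and 0 without them. Of all genes 3.74% and 2.72% were called lower in these 2 fits. Of the theca markers Insl3 was at or near 0 in all libraries and was not tested. Cyp17a1, Cyp11a1 and Hsd3b1 had log2 fold changes of -0.34, -0.30 and -0.0088. Of these 3 genes 0 had an unadjusted p under 0.05 in edgeR's test. The 4 adipocyte markers (121 to 345 CPM in CNTR, 52.0 to 249 in PAMH F3) and the 5 oviduct epithelium markers (3078 to 5448 CPM in CNTR, 2748 to 6491 in PAMH F3) mark tissue that lies beside the ovary. Both sums were highest in CNTR replicate 1 and PAMH F3 replicate 3. The oviduct sum was mostly Ovgp1, at 5074 and 6172 CPM in those 2 libraries. Ccdc39 was highest in CNTR replicate 1 and Pax8 in PAMH F3 replicate 3, but Foxj1 in CNTR replicate 2 and Dnah5 in PAMH F3 replicate 4. The 4 smooth muscle markers summed to 948, 1459 and 1324 CPM in CNTR and to 1247, 1231, 1116 and 785 CPM in PAMH F3. Unlike the mitotic sum, theirs was lowest in PAMH F3 replicate 4, followed by CNTR replicate 1, and highest in CNTR replicate 2. That library was highest for 2 of 4 single markers. The leukocyte sum was highest in PAMH F3 replicate 1. The erythroid sum was highest in CNTR replicate 3 and, like the mitotic sum, lowest in CNTR replicate 2. The part of any cell type in the differences between mice was not tested.

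Other genes of the same machinery, from lists drawn up beside the members, gave a like picture. Of 41 other S phase genes 0 had an unadjusted p under 0.05 in edgeR's test, with the lowest p for Clspn (0.27, SE 0.13, unadjusted p = 0.0800), a replication checkpoint mediator, and Lig1 (0.17, SE 0.11, unadjusted p = 0.160), the DNA ligase of replication, and without surrogate variables there were also 0. Of 55 other mitotic genes 2 did, where 7.63% of all genes were called: Hjurp, the chaperone of centromeric histone CENP-A, and Zwint, a kinetochore gene. Groups did not overlap for 1 of the 55, against 4.25% of all genes. Hjurp was at 615, 609 and 597 CPM in CNTR and at 656, 706, 737 and 776 CPM in PAMH F3, with no overlap (log2 fold change 0.25, SE 0.08, unadjusted p = 0.0146, adjusted p = 0.564). Zwint was at 174, 141 and 151 CPM in CNTR and at 149, 141, 131 and 158 CPM in PAMH F3 (log2 fold change -0.16, SE 0.06, unadjusted p = 0.0244), with overlap, and without surrogate variables at -0.098 (unadjusted p = 0.335).

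Regulators around RB and E2F, 23 genes, had 3 at an unadjusted p under 0.05, all higher in PAMH F3, where 3.89% of all genes were called higher. Without surrogate variables they had 2, both higher, against 1.17%. Rbl1, the p107 pocket protein, was at 35.5, 30.6 and 36.5 CPM in CNTR and at 40.5, 40.4, 40.8 and 41.6 CPM in PAMH F3 (log2 fold change 0.23, SE 0.07, unadjusted p = 0.0115, adjusted p = 0.550). E2f8, an E2F repressor, was at 6.36, 5.01 and 6.16 CPM in CNTR and at 7.37, 8.16, 7.73 and 8.09 CPM in PAMH F3 (log2 fold change 0.38, SE 0.13, unadjusted p = 0.0207, adjusted p = 0.598). For both genes all PAMH F3 libraries lay above all controls, as for 3 of the 23 in all, against 1.85% of all genes. The 8 genes listed as CDK inhibitors, most of which hold the G1 kinases in check, were all below 0 in log2 fold change. Of all genes 52.2% were above 0, and after the GC and length correction 1 of the 8 was. Nearest to 0 were Cdkn3 at -0.012 (SE 0.18) and Cdkn1b at -0.033 (SE 0.18). At an unadjusted p under 0.05 there were 3, all lower, where 3.74% of all genes were called lower. Without surrogate variables there were 4, against 2.72%, and after the GC and length correction 2, against 2.94%. None passed an adjusted p of 0.05 in these edgeR fits, in which 0 of 18779 genes did. The study, with DESeq2 and its own adjustment of p, lists Cdkn1a and Cdkn2b among its significantly downregulated genes. Cdkn1a, p21, was at 66.0, 73.0 and 63.7 CPM in CNTR and at 46.5, 36.9, 33.2 and 35.8 CPM in PAMH F3 (log2 fold change -0.83, SE 0.13, unadjusted p = 0.000366, adjusted p = 0.369), and Cdkn2b, p15, had a log2 fold change of -0.78 (SE 0.16, unadjusted p = 0.00146).

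Across all genes, 223 of 18779 (1.19%) had r above 0.9 with the mean of the 23 mitotic genes over the 7 libraries, as had 27 of the 55 other mitotic genes and 14 of the 41 other S phase genes, but 0 of the 23 RB and E2F regulators and 0 of the 8 CDK inhibitors. Among the 10 genes outside all lists with the highest r were Cep70, Trip13, Pclaf, Cenpi, BC055324, Etaa1, Shcbp1 and Cip2a, from 0.99 to 0.97. Pclaf is a PCNA-binding factor, Trip13 a checkpoint ATPase and Cenpi a centromere gene. The log2 fold changes of these 8 genes between the groups lay between -0.02 and 0.12.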

How the data were processed

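Per the labels and the study's methods, the authors made stranded poly(A) libraries from whole ovaries of 3 CNTR and 4 PAMH F3 mice, called bases with bcl2fastq 2.17.1.14, aligned single reads to mm10 with STAR 2.5.3a and counted uniquely aligned reads per Ensembl gene with HTSeq 0.6.1p1; the strand setting is not given in the sources used here. The deposited values are raw read counts. Lines that name no gene held reads without a unique alignment (37.7% to 40.7% of the total), reads outside genes (5.82% to 7.37%) and ambiguous reads (0.72% to 0.85%), and stayed out of library sizes. No batch or date is given.

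Identifiers were matched to GENCODE M21 (55394 of 55487). Of 33791 genes with a count, 18779 passed edgeR's filterByExpr (minimum count 10). Following the study's methods, which take unwanted variation out with sva, counts were fitted with edgeR 4.0.16 (R 4.3.3; TMM; quasi-likelihood F test) on group and 2 surrogate variables (sva 3.50.0, svaseq, number from num.sv with 20 permutations and seed 1), which left 3 residual degrees of freedom; fits without them stand beside it. P-values were adjusted by Benjamini-Hochberg over all genes tested. Replicates are single mice. Log2 CPM used a prior count of 2. Transcripts were compared with all others in words of 50 bases. Promoters came from RefSeq (GRCm38.p6). DESeq2 1.42.0, other filters and scalings, a replicate block, a correction for GC content and exon length, and leaving out each library were alternatives. The tests were checked on simulated counts. Python 3.11.15 with pandas 2.3.3, numpy 2.4.6 and SciPy 1.17.1 did the rest.

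The members and gene lists were chosen with earlier results of these data known. Values in every library are given for members with an unadjusted p under 0.05 or groups that do not overlap, for Mki67, Top2a, Ccnd2, Mcm5, Ccnb1, Cdk1 and E2f1, and for the highest and lowest member of each class; other lists show their 2 lowest p, and genes outside the lists the 10 with the highest r, of which some are not reported here. Ccnd3, Cdt1, Plk1, Cenpe, Cenpf, Rrm2, Ccne2 and Mcm3 were singled out after their values were seen.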

Additional observations from a re-analysis of the deposited data

Results flagged for a closer look

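In PAMH F3 replicate 4 the helicase genes Mcm3, Mcm4 and Mcm5 stood apart from the other 3 PAMH F3 libraries. Mcm3 was at 94.9 CPM there and at 70.8 to 73.9 CPM in the others, Mcm4 at 73.8 against 58.2 to 60.8 CPM, and Mcm5 at 64.2 against 48.8 to 51.3 CPM. The gap to the nearest library was 0.871, 0.834 and 0.840 of the group's range, each above Dixon's 95% limit for 4 samples. These were 3 of 48 members checked, and chance sets apart about 1 in 20 such groups. The CNTR group, with 3 mice, was not checked in this way.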

How the results depend on the processing

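The number of members past an adjusted p of 0.05 was 0 under every alternative run. The 2 members at an unadjusted p under 0.05 with surrogate variables, Ccnd1 and Foxm1, kept their sign under every alternative. Some members just below 0 turned. In edgeR's test with surrogate variables and without CNTR replicate 1, Ccnd2 was at 0.22 (unadjusted p = 0.0328). In the same fit Cdc6 was at 0.32 (unadjusted p = 0.0337). Over all genes the number was 0 in edgeR, 101 with DESeq2 and the same surrogate variables, 6 with DESeq2 without them, 8 with no filter on low counts, and 0 to 37 (0 to 2 without surrogate variables) with 1 library left out. The number of members at an unadjusted p under 0.05, 2 with surrogate variables, was 1 without them, 1 with DESeq2 with or without them, 1 with at least 10 counts in every library, 1 with the GC and length correction, and 0 to 21 with 1 library left out (0 to 14 without surrogate variables), 21 and 14 being the values without CNTR replicate 1. Replicate numbers are shared by the groups but did not pair the mice: deviations of same-numbered libraries correlated at 0.0957, 0.0965 and -0.248, and only for replicate 1 was the partner the closest; with the replicate block the number was 0. Members whose groups did not overlap numbered 0 to 18 with 1 library left out. The class medians ranged, with 1 library left out, from -0.021 to 0.15 for G1 genes, -0.12 to 0.25 for S phase genes, -0.045 to 0.31 for mitotic genes and 0.092 to 0.34 for transcription factors, the highest of each without CNTR replicate 1, where they were 0.15, 0.23, 0.30 and 0.34 with surrogate variables and 0.15, 0.25, 0.31 and 0.33 without. Without the 2 farthest libraries r was 0.82 (Mki67, Top2a), 0.86 (Ccnb1, Cdk1), 0.50 (Mcm5, Mcm2), 0.76 (Mcm5, Top2a) and 0.78 (E2f1, Mcm5), with adjusted exact p of 0.175 to 0.5 over 5 libraries. Class means per library moved by less than their spread under other scaling and prior counts. The cause of these changes was not tested. The GC correction, and the correlations within fewer libraries, were chosen after seeing the data. Each member had 124 or more reads in every library, and no limit of depth was tested.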
